A study of Drosophila melanogaster with 800 samples.

Results

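Line 31 is an inbred strain of Drosophila melanogaster, 1 of 200 such strains whose whole-fly RNA was sequenced, and it held far more of the 7SL RNA gene 7SLRNA:CR32864 than any other line. The features described here were chosen by their log2 FPKM values in line 31 against the other lines: both libraries of line 31 lay above, or both lay below, all libraries of the same sex from the other lines, in both sexes or in 1. There were 43 such features among 35014 in all (0.123%), of which 14 (0.04%) met the rule in both sexes, 11 (0.0314%) in females only and 18 (0.0514%) in males only. Since these values selected the features, the contrast of line 31 with the other lines is given as a description, with no test. A feature is a gene of the fly annotation or a locus without a symbol that the authors' table added.

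The samples came from the Drosophila Genetic Reference Panel (DGRP), a set of wild-derived lines made nearly homozygous by repeated mating of full sibs. Each line and sex gave 2 separate pools, of 25 females or 30 males, and 1 library per pool. Line 31 therefore contributed 2 female and 2 male libraries, and the other lines contributed 796 libraries, as many female as male. All flies were mated, 3 to 5 days old and reared at 25 °C on cornmeal-molasses-agar medium, with no treatment, no transgene and no induced mutation named in the labels. Line 31 is 1 genotype, and what sets it apart cannot be assigned to a single locus from these samples.

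The 7SL RNA is the RNA scaffold of the signal recognition particle (SRP), a complex of this RNA with a small group of SRP proteins. The particle binds the signal peptide of a nascent secreted or membrane protein, slows its synthesis, and docks on the SRP receptor at the endoplasmic reticulum, where the Sec61 translocon takes over the chain. 7SL RNA is made by RNA polymerase III, as are tRNAs.

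The label of high 7SL RNA held for 1 of the 2 annotated 7SL genes. On the deposited scale, log2 of FPKM (fragments per kilobase of exon and megafragment) plus 0.001, the level of 7SLRNA:CR32864 (FBgn0000003, arm 3R, 299 bases) was 11.68 and 11.79 in the female libraries of line 31 and 11.82 and 12.19 in its male libraries. In the other lines the level was 1.66 at the lowest, 4.37 at the median and 8.49 at the highest in females, and 1.76, 4.63 and 9.51 in males. All 4 libraries of line 31 stood above every other library of their sex, by at least 3.18 log2 units in females and 2.31 in males. The mean of line 31 was 165-fold the median of the other female libraries and 167-fold that of the other male libraries.

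Read numbers recovered from the values put this level in terms of depth. The gene held about 9939 and 12911 reads in the female libraries of line 31 and 10764 and 13829 in the male ones. These were 0.0979%, 0.106%, 0.108% and 0.140% of the respective libraries. Counting error is therefore small beside the differences described.

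Lines 531 and 765 came next after line 31. Line 531 had levels of 7.77 and 7.81 in females and 8.33 and 9.51 in males. Line 765 had levels of 8.49 and 7.67 in females and 7.85 and 7.91 in males. No library of the remaining 197 lines exceeded 6.77 in females or 7.38 in males, so the females of these 2 lines and of line 31 stood apart from the rest, and so did the males.

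The other annotated 7SL gene, 7SLRNA:CR42652 (FBgn0261504), is the neighbouring gene on 3R, lies on the opposite strand and has the same length. Its level in line 31 was 6.14 and 5.01 in females and 5.72 and 5.62 in males, inside the range of the other lines (1.29 to 6.53 and 1.76 to 7.30). By the mean of its libraries, line 31 ranked 10 of 200 in females and 15 in males for this gene. The difference between the genes, CR32864 minus CR42652, was 5.53 and 6.78 in females of line 31 and 6.11 and 6.57 in males. Over the 197 lines left after setting lines 31, 531 and 765 aside, the same difference had a median of -0.25 in females (-1.34 to 0.88) and -0.21 in males (-1.71 to 0.81). The mean differences of lines 531 and 765 were 3.50 and 3.18 in females and 3.07 and 3.68 in males. Line 31 and these 2 lines were thus high in 1 gene of the pair, as the plot of the 2 genes against each other shows. The genes are near-identical copies, so the division of reads between them by the authors' counting is uncertain.

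**Figure D1:**
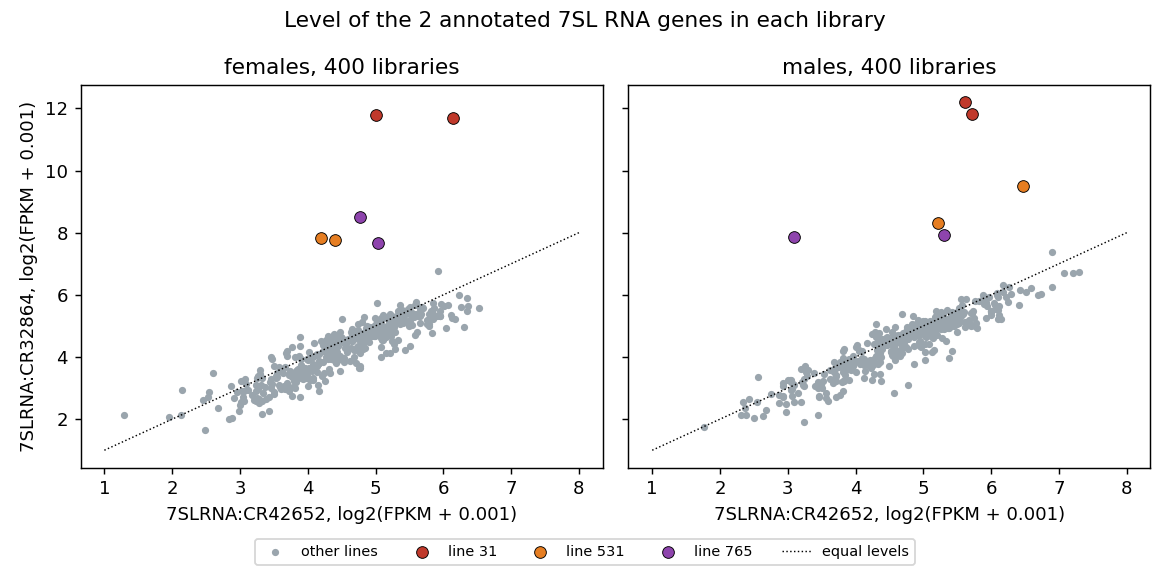
Level of 7SLRNA:CR32864 (vertical axis) against 7SLRNA:CR42652 (horizontal axis), both as log2(FPKM + 0.001), in females (left) and males (right); each point is 1 library and the dotted line marks equal levels. Libraries of 197 lines lie in a band along the dotted line, while those of lines 31, 531 and 765 lie above it, line 31 highest at 11.68 to 12.19.

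Line 31 was chosen for a high level in all 4 libraries, and lines 531 and 765 were high in all 4 of theirs. With these set aside, the 7SL level of a line in 1 library said little of its level in the other. Over the 197 lines, the level of CR32864 in replicate 1 had a Pearson r of -0.01 with that in replicate 2 in females (Spearman rho -0.01) and 0.10 in males (rho 0.13), with permutation p-values of 0.929 and 0.849 in females and 0.162 and 0.0758 in males. Without the 2 lines farthest from the median, r was -0.003 and 0.11. For CR42652 the corresponding r was 0.09 in females (rho 0.07, permutation p 0.230 and 0.360) and 0.21 in males (rho 0.23, permutation p 0.00242 and 0.00155), and 0.07 and 0.22 without the 2 farthest lines.

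The replicate libraries also differed in their mean 7SL level. CR32864 averaged 3.94 ± 0.96 (SD, 197 lines) in replicate 1 and 4.56 ± 0.78 in replicate 2 of females, and 3.96 ± 0.93 and 4.91 ± 0.79 in males. Replicate 2 was the higher in 134 of 197 lines in females and in 158 in males. For CR32864 the median absolute difference between the replicates of a line was 0.91 and 1.09 log2 units, against 0.12 and 0.37 in line 31. For CR42652 it was 0.77 and 1.07, against 1.13 and 0.10 in line 31.

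The line means of the copies moved together. Over the 197 lines the line means of CR32864 and CR42652 had an r of 0.88 in females (rho 0.88) and 0.90 in males (rho 0.90), and r stayed at 0.88 and 0.90 without the 2 farthest lines. Female and male line means had an r of 0.40 for CR32864 (rho 0.39) and 0.48 for CR42652 (rho 0.48), and 0.40 and 0.47 without the 2 farthest lines. Each of these 4 relations had a permutation p of 1e-05, the smallest that 100000 permutations can give, and adjusted over the 8 relations computed they had a p of 2e-05. On the same adjustment the replicate relation of CR42652 in males had a p of 0.00387 and the other 3 replicate relations had p-values from 0.216 to 0.929. The copies share libraries and may share reads, so their r is partly a property of the counting. Replicates of the same sex had an r of -0.01 in females and 0.10 in males for CR32864, and 0.09 and 0.21 for CR42652. Whether the relation of the sexes reflects a steady level of the line was not tested.

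Line 31 had no unusual number of features outside the range. Its 43 compare with a median of 66 over the other lines when each is set against the rest in the same way, and 174 of the other lines had more. The other lines ran from 12 to 765 features, the highest being line 325. In the class of both sexes, line 31 had 14 features against a median of 18 (2 to 75), in females only 11 against 22 (5 to 236), and in males only 18 against 25 (5 to 709).

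**Figure D2:**
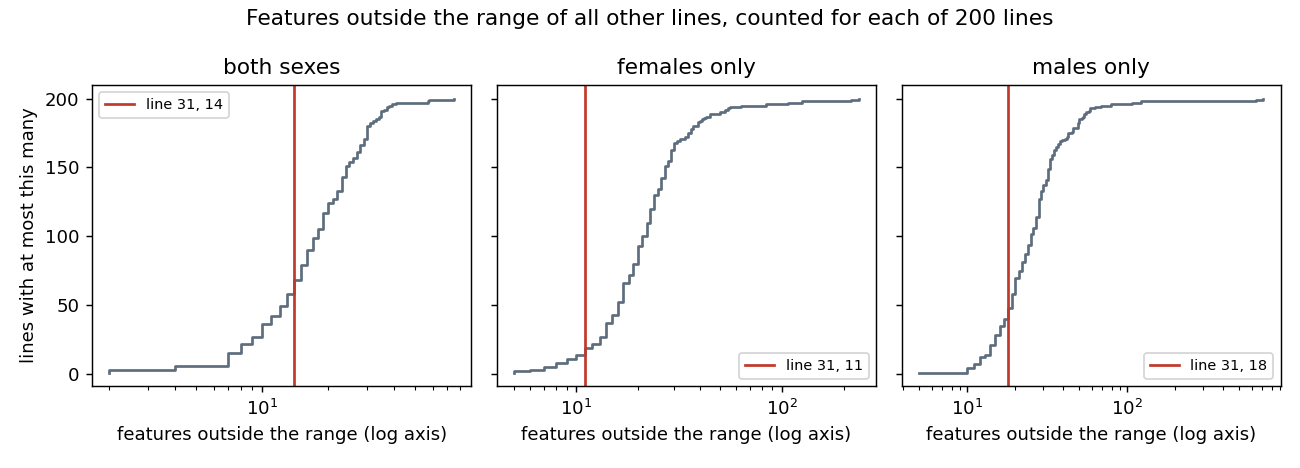
Number of lines (vertical axis) with at most a given number of features outside the range of all other lines (horizontal axis, log scale), for features outside in both sexes, females only and males only. The red line marks line 31, at 14, 11 and 18 features, below the median of the other lines in each panel.

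Line 31 was above the range for 11 features of the class of both sexes (0.0314% of all), for 7 of the class of females only (0.02%) and for 17 of the class of males only (0.0486%). It was below the range for 3 (0.00857%), 4 (0.0114%) and 1 (0.00286%). The other lines, each set against the rest, had medians of 14, 16 and 18 features above and of 3, 5 and 6 below, so most features lay above the range in the other lines too. A symbol was available for 24 features, 16 of them above and 8 below, and all 19 without a symbol were above.

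Besides CR32864, 4 genes with a symbol were above the range in both sexes. Gr63a (FBgn0035468, 3L) encodes a chemoreceptor of the antennal neurons that sense carbon dioxide. Its level was 1.66 and 1.68 in females of line 31 and 3.06 and 3.51 in males. The other lines had a lowest, median and highest level of -9.97, -3.30 and -0.59 in females and -9.97, -1.66 and 0.85 in males. The value -9.97 is the floor of the scale, where FPKM is listed at 0. Line 31 was thus 31.2-fold the median of the other females and 30.8-fold that of the other males. These values rest on about 47 and 57 reads in females and 122 and 165 in males. That the groups did not overlap follows from the rule.

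The gene btn (buttonless, FBgn0014949, 3R) encodes a homeodomain transcription factor of embryonic dorsal median cells. It had levels of 2.05 and 1.71 in females of line 31 and 3.04 and 2.09 in males, from about 20 and 19 and from 39 and 20 reads. It was listed at 0 in 262 of the other female libraries (65.8%) and in 218 of the male ones (54.8%), and no other library exceeded 0.82 and 0.44. Line 31 therefore had a low level of a gene that was not detected in most other libraries at their depth.

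The long noncoding RNA lncRNA:CR44068 (FBgn0264877, 2R) was at 3.46 and 3.75 in females of line 31 and at 4.67 and 4.62 in males. The other lines had a lowest, median and highest level of -9.97, -3.54 and 0.35 in females and -1.95, 2.50 and 3.84 in males. In the other lines it was higher in males than in females, where 32.9% of libraries listed it at 0, and line 31 was 7.14 log2 units above the median of the other females and 2.15 above that of the other males.

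The isoleucine tRNA gene tRNA:Ile-AAT-1-2 (FBgn0050297, 2R) was at 3.24 and 3.98 in females of line 31 and at 4.71 and 3.47 in males. The values rest on about 7 and 14 reads in females and 19 and 8 in males, and 53.8% of the other female and 67.3% of the other male libraries were listed at 0. The highest other library had 2.84 in females and 2.57 in males. A tRNA of 74 bases that has copies elsewhere in the genome is poorly measured in libraries of fragmented RNA, so this value is uncertain.

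Of the 6 features without a symbol above the range in both sexes, XLOC_009012 and XLOC_006089 had the largest margins. XLOC_009012 was at 5.44 and 5.51 in females of line 31 and at 4.51 and 5.00 in males, and no other library exceeded 2.62 and 1.92. XLOC_006089 was at 0.36 and 0.10 in females and at 1.39 and 1.54 in males, and was listed at 0 in 97.5% of the other female and 96.5% of the other male libraries.

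**Figure D3:**
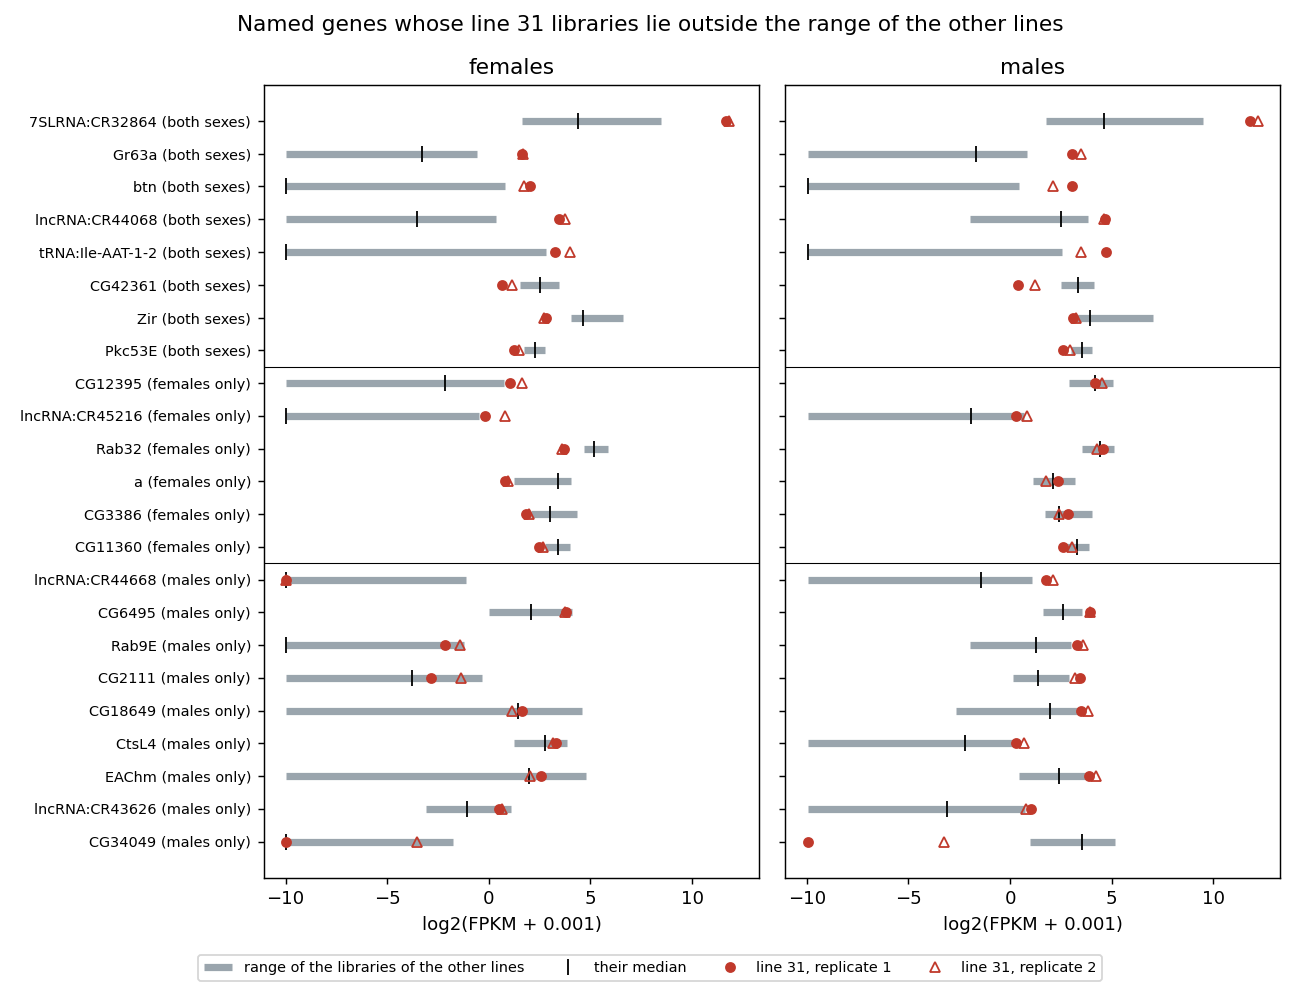
Levels of the genes with a symbol named in the text, as log2(FPKM + 0.001) on the horizontal axis, in females (left) and males (right); grey bars span the libraries of the other lines, black ticks mark their median, and red symbols are the 2 libraries of line 31. 7SLRNA:CR32864 lies farthest above its grey bar among the genes high in both sexes, and CG34049 lies farthest below its bar, in males.

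Some of the high genes were neighbours. The genes lncRNA:CR44068 and tRNA:Ile-AAT-1-2 lie within 5 annotated places of each other on 2R and on the same strand, with the pseudogene CR30374 between them in annotated order, on the opposite strand and overlapping lncRNA:CR44068. CR30374 was inside the range in both sexes, listed at 0 in the females of line 31 and at -2.56 and -0.24 in its males, against a male median of -2.69. The next genes beyond the tRNA were also inside the range in both sexes. The male levels of CG8708 were 5.77 and 5.51 against a median of 5.29, and those of RagC-D were 4.15 and 3.97 against 4.17.

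**Figure D4:**
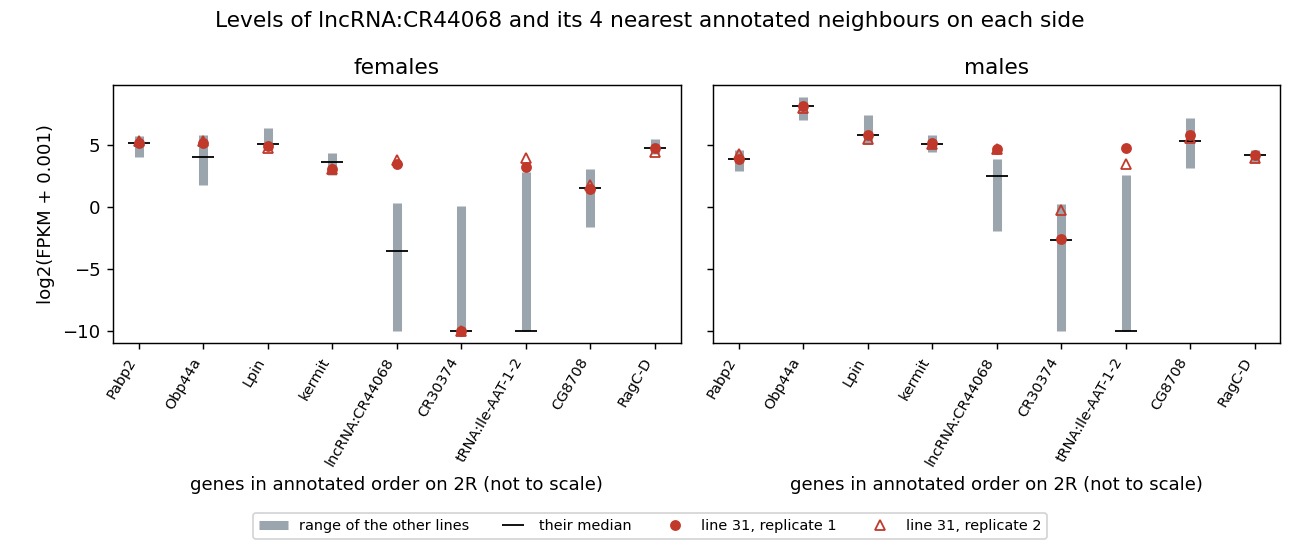
Levels, as log2(FPKM + 0.001), of lncRNA:CR44068 and its 4 nearest annotated neighbours on each side in their order on 2R, in females (left) and males (right); grey bars span the other lines, black ticks their median and red symbols the libraries of line 31. lncRNA:CR44068 and tRNA:Ile-AAT-1-2 lie above their bars in both sexes, and the other genes shown lie inside theirs.

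Another 2 pairs of neighbours were above the range in males only: CG2111 and Rab9E on the X, and CG18649 and EAChm on 3L, each pair on opposite strands. Counting all 24 annotated genes, named here or not, 7 (29.2%) had another of them among the 5 nearest genes on either side. The same share over the other lines, each with its own genes outside the range, had a median of 15.4% (0% to 48.7%), and 22 lines had a higher share. Neighbours do not vary independently, so these genes are not separate observations of line 31. By arm, 4 of the 24 lie on 2L, 7 on 2R, 6 on 3L, 3 on 3R, 1 on the fourth chromosome, 3 on the X and 0 on the Y, where 2R holds 20.2% and 3R 23.9% of all annotated features.

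The genes below the range in both sexes were Zir, Pkc53E and CG42361. Zir (FBgn0031216, 2L) encodes a guanine nucleotide exchange factor for small GTPases. It was at 2.83 and 2.74 in females of line 31, against 4.04, 4.61 and 6.61 for the lowest, median and highest of the other lines. In males it was at 3.09 and 3.24 against 3.29, 3.91 and 7.04, so the male libraries of line 31 lay just under the range.

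Pkc53E (FBgn0003091, 2R) encodes a conventional protein kinase C. It was at 1.25 and 1.51 in females against 1.75, 2.28 and 2.75 in the other lines, and at 2.59 and 2.97 in males against 2.99, 3.55 and 4.04. Its line 31 values were 0.536 and 0.585 of the other lines' medians in females and males. CG42361 (FBgn0259707, 2R) was at 0.66 and 1.15 in females against 1.55, 2.50 and 3.45, and at 0.39 and 1.22 in males against 2.49, 3.32 and 4.13, from 13 to 27 reads a library.

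The rule has a limit at the edge of the other lines' range. Pkc53E was the gene with a symbol nearest to it from inside the class, 0.02 log2 units beyond the range in its nearer sex, and Zir followed with 0.05. The nearest genes that failed were CG1941, 0.14 short of the range, with 1.93 and 1.48 in females and 2.57 and 2.22 in males against lowest values of 1.80 and 2.50, and CARPB, also 0.14 short, with 1.86 and 2.05 in females against a highest value of 1.99.

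The female-minus-male difference of line 31 was set against that of the other lines with limma, over all features whose log2 FPKM averaged 0 or more in each sex. Of 10501 features, 10 (0.0952%) had an adjusted p below 0.05, 1 with a higher (0.00952%) and 9 with a lower (0.0857%) difference in line 31. Features chosen by their values in line 31 are among those counted, so the count is a description. In the class of both sexes 4 features passed the filter, and their departures are given with no test, since the same values chose them. The departure was -0.08 ± 0.69 (SE) for 7SLRNA:CR32864, -0.12 ± 0.17 for Pkc53E and 0.93 ± 0.28 for CG42361. For Zir it was -1.05 ± 0.23 (SE), and -0.88 without replicate 2.

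In females only, 4 genes with a symbol were below the range. Rab32 (FBgn0002567, 2R) encodes a small GTPase needed for the pigment granules of the eye, and was at 3.69 and 3.61 in females of line 31 against 4.68, 5.19 and 5.88 in the other lines. Its male levels of 4.55 and 4.27 lay beside the median of 4.41. The gene a (arc, FBgn0000008, 2R), which acts in wing and eye development and encodes a PDZ-domain protein, was at 0.81 and 0.95 in females against 1.25, 3.42 and 4.04, and at 2.33 and 1.78 in males against a median of 2.12.

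CG3386 (FBgn0035152, 3L) was at 1.83 and 1.98 in females against a lowest level of 2.07 and a median of 3.00. CG11360 (FBgn0039920, chromosome 4) was at 2.49 and 2.67 in females against 2.75 and 3.39, and its line 31 mean was also the lowest of 200 lines in males, where its libraries, at 2.60 and 3.05, lay inside the range, whose lowest value was 2.58. Above the range in females only were CG12395 (FBgn0030722, X), at 1.05 and 1.61 against a highest other level of 0.72, and lncRNA:CR45216 (FBgn0266743, 3R), at -0.21 and 0.79 against -0.47. CG12395 was much higher in males of all lines, with 4.18 and 4.53 in line 31 and a median of 4.16.

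Values of 3 neighbours of these genes are given as a description. They were picked after their values were seen, from 203 neighbours, for a high line mean in line 31, and no test was made. The long noncoding RNA lncRNA:CR44284, which overlaps Rab32 on the opposite strand, had its highest line mean of all 200 lines in line 31 in both sexes, with -0.89 and -0.42 in females, where the median library was listed at 0, and 1.01 and 1.73 in males against a median of -0.07. The libraries keep the strand, but the labels do not say whether the counting used it, so reads of Rab32 and of this antisense RNA cannot be told apart with certainty. Next to a, CG34205 on the opposite strand had its highest female mean in line 31, at 1.24 and 0.16, where the other lines' median was at the floor. Near CG3386, CG32483 had its highest female mean in line 31, at 4.91 and 4.79 against a median of 3.74.

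In males only, 9 genes with a symbol were above the range, among them the following. CG6495 (FBgn0027550, 2L) was at 3.92 and 3.94 against 1.60, 2.62 and 3.52 in the other males, and was the second highest line in females, at 3.78 and 3.74. Rab9E (FBgn0052673, X), a small GTPase gene of the Rab9 group, was at 3.30 and 3.58 against -1.96, 1.27 and 3.00. Its neighbour CG2111 (FBgn0030223, X) was at 3.44 and 3.17 against 0.13, 1.35 and 2.90. In females both were near the floor, with about 2 to 13 reads a library in line 31.

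CG18649 (FBgn0036469, 3L) was at 3.48 and 3.83 in males against a highest other level of 3.33, and EAChm (FBgn0036470, 3L) at 3.86 and 4.24 against 3.77. Their female levels, 1.64 and 1.12 and 2.55 and 2.02, lay near the medians of 1.42 and 1.97. CtsL4 (FBgn0032228, 2L), a gene for a cathepsin L-like cysteine protease, was at 0.29 and 0.67 in males against 0.15, from 17 and 22 reads. lncRNA:CR44668 (FBgn0265879, 3L) was at 1.78 and 2.10 against 1.08 in males and was listed at 0 in both females. lncRNA:CR43626 was at 1.01 and 0.80 against 0.72.

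The gene with the largest margin below the range was CG34049 (FBgn0054049, 2L). It was at -9.97 and -3.24 in males of line 31, that is 0 reads and 1 read, while the other males had 1.00, 3.53 and 5.15. All other male libraries had the transcript. In females the gene was listed at 0 in 309 of the other libraries (77.6%), and line 31 had 0 reads and 1 read there too. The share of its variance lying between lines, estimated from the replicates of the other males, was 0.899, so its level is a steady property of the other lines as well.

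That share differed between genes and, for some, between the sexes. For the genes with a symbol, the share between lines among the other lines was 0.842 for Zir, 0.868 for lncRNA:CR44068 and 0.713 for Rab9E in males, and 0.755 for a and 0.680 for Rab32 in females. It was 0.04 in females and 0.01 in males for 7SLRNA:CR32864, and 0.03 and 0.10 for Gr63a, where the other lines are low or listed at 0. For lncRNA:CR44068 in females it was 0.06. Among genes below the range it was 0.24 for CG11360 in females and 0.29 for CG42361 in males. In line 31, values outside the range, high or low, thus occurred in genes with larger and with smaller shares. The shift between replicates described above counts as error in the share, which lowers it for 7SLRNA:CR32864. The lines next after line 31 were high in this gene in all their libraries, so a small share does not exclude repeatable differences.

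The authors' deposited tables of line means gave the same ordering for most of these features. The authors' deposited table for females lists 15 of the 25 features of that sex, and line 31 was the most extreme line for all 15. The authors' deposited table for males lists 22 of 32, and line 31 was the most extreme for 21. For 7SLRNA:CR32864 the authors' deposited table gives line 31 a mean of 7.12 in females and 6.70 in males, below the plain means of its libraries, against medians of 4.32 and 4.48. The deposited means rest on the same libraries and are not independent of them.

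Variant density, a further deposited measure that the choice of features did not use, is the log2 density of sequence variants of a gene in a line. In line 31, 12 of the 43 features (27.9%) had no variant, against a median of 25.6% of the same features over the other lines (11.6% to 46.5%). Over all 35014 features the values were 30.5% and 27.9%. By rank of density, with 1 the highest of 200 lines, line 31 had a median rank of 129.5 over the 43 features and of 112.5 over all features, so the features were not denser in variants than its genome at large. None of the 43 placed line 31 among the 10 densest lines (2.24% of all features), and 4 (9.30%) placed it among the 10 least dense (4.65%).

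Single genes differed. CG34049 had no variant in line 31 and had variants in 170 lines. Gr63a had a log2 density of -0.55 against a median of 2.45, and ranked 198.5. CG3386 had 1.17 against 4.76. Neither 7SL gene had a variant in line 31. CR32864 carried variants in 11 lines, among them line 531 and not line 765, and CR42652 in 0 lines. Without line 531, the other 10 lines with a variant had a median CR32864 level of 4.89 in females and 5.35 in males, and the 187 lines with none had 4.26 and 4.35, with overlapping ranges (3.65 to 5.39 and 2.73 to 5.55 in females).

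Transcripts for the protein partners of 7SL RNA were not at the extremes in line 31. Of 9 genes for SRP proteins and the SRP receptor, none placed line 31 among the 10 highest or the 10 lowest lines in either sex, where 1.72% and 2.08% of all features with a mean of at least 0 did so in females and 3.06% and 3.40% in males. Their median difference, line 31 minus the other lines' median, was 0.01 log2 units in females (-0.20 to 0.14) and 0.16 in males (-0.09 to 0.28), beside -0.04 and 0.04 over all features. The 11 genes of the translocon and of signal peptide processing likewise had 0 in the 10 highest or lowest lines, with medians of 0.02 and 0.07. The transcripts of these protein-coding genes thus showed no difference of the size of that in 7SLRNA:CR32864, and protein amounts were not measured.

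Of 13 genes of endoplasmic reticulum stress and folding, 2 (15.4%, beside 2.08% of all features) placed line 31 among the 10 lowest in females. They were Xbp1 and Atf6, which encode transcription factors of the unfolded protein response. Xbp1 was at 7.09 and 6.87 against a median of 7.23, and Atf6 at 4.84 and 4.81 against 5.28. In males neither placed line 31 among the 10 lowest. Xbp1 was at rank 164, toward the low end as in females, and Atf6 at rank 95, near the middle. Of 14 genes of the RNA polymerase III machinery, 1 (7.14%, beside 3.06% of all features) placed line 31 among the 10 highest in males. It was Trf, the TBP-related factor that serves RNA polymerase III in the fly, at 3.91 and 3.85 against 3.48. Trf was at rank 49 in females. These 2 lists had medians of -0.04 and 0.01 in females and 0.06 and 0.02 in males.

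Other structured noncoding RNAs, such as snoRNAs, snRNAs and tRNAs, had medians in line 31 near or below those of the other lines. Of 226 with a mean of at least 0 in females, 103 were above the median of the other lines in line 31, 8 (3.54%, beside 1.72% of all features) placed it among the 10 highest lines and 2 (0.885%, beside 2.08%) among the 10 lowest, and their median difference was -0.04. Of 180 in males, 60 were above the median, 2 (1.11%, beside 3.06%) placed it among the 10 highest and 8 (4.44%, beside 3.40%) among the 10 lowest, and the median difference was -0.24. The RNA of RNase MRP, which processes ribosomal RNA precursors, was at 13.06 and 12.68 in females against a median of 12.54 and at 12.07 and 12.35 in males against 11.76. The RNA of RNase P, which trims tRNA precursors, was at 12.81 and 12.15 in females against 12.24 and at 12.50 and 12.25 in males against 12.09, inside the range of the other lines as was RNase MRP.

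Which features rose or fell with the 7SL level was then tested over the other lines, leaving line 31 out. For each sex, limma fitted the line mean of each feature on that of the 7SL gene with the higher mean over these lines, CR42652, which averaged 4.60 over libraries of both sexes against 4.38 for CR32864. In females 511 of 10929 features (4.68%) had an adjusted p below 0.05, 311 with a positive slope (2.85%) and 200 with a negative one (1.83%). In males 885 of 15015 (5.89%) did so, 787 positive (5.24%) and 98 negative (0.653%). With CR32864 in its place, chosen as an alternative after seeing the data, 163 (1.49%) and 544 (3.62%) were called. These counts depend on the libraries: without replicate 1 they were 1533 in females and 3663 in males.

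None of the features chosen for line 31 was called in the main fit. Of the 43, 12 passed the filter in females and 16 in males, on the means of the other lines, and their lowest adjusted p was 0.449 in females and 0.176 in males. Without replicate 1, 1 of the 16 was called in males. Over all alternative settings, 5 of 308 slopes of these features were called with the sign of the main fit. The slopes of Zir and Pkc53E lay between -0.01 and 0.02 log2 units per log2 unit of CR42652. With CR32864 as the measure of 7SL, Rab9E in males had a slope of 0.23 and an adjusted p of 0.0296, and none of the other 15 in males or of the 12 in females was called.

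Genes of the SRP pathway had small positive slopes in males. Of 9 SRP and receptor genes, 2 rose with the 7SL level in males, where 5.24% of all features did, and 0 in females (2.85%): Srp54k, for the subunit that binds the signal peptide, with a slope of 0.06 ± 0.02 (SE; adjusted p = 0.0307, limma), and Srp9, for a subunit of the Alu domain, with 0.06 ± 0.02 (adjusted p = 0.0168). Of 11 translocon and processing genes, Trp1 (0.06, adjusted p = 0.0114), Sec63 (0.06, adjusted p = 0.0331) and twr (0.07, adjusted p = 0.0305) rose in males and 0 in females. The median slopes were 0.03 and 0.04 in males beside 0.02 over all features, and -0.01 and -0.0007 in females beside 0.002. With median-centred libraries 0 of the 9 and 0 of the 11 were called in males, and without lines 812 and 528, the farthest in 7SL level, 0 of the 9 and 3 of the 11.

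Of the other lists, Calr, for the chaperone calreticulin, was the 1 of 13 genes of folding (7.69%, beside 5.24% of all features) that rose in males (0.07, adjusted p = 0.0137), and Cnx99A, for calnexin, fell in females (-0.07, adjusted p = 0.0265). Of 14 genes of the RNA polymerase III machinery, 2 rose in males (14.3%, beside 5.24%), among them La, whose protein binds the ends of RNA polymerase III transcripts (0.05, adjusted p = 0.0198). With median-centred libraries 0 of the 13 and 0 of the 14 were called in males. The slopes of the protein-coding genes named from these lists were at most 0.07 in size, in log2 units per log2 unit of 7SL.

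Structured noncoding RNAs rose with the 7SL level of the same line and sex. In females 127 of 226 rose with CR42652 (56.2%, beside 2.85% of all features) and 0 fell. In males 62 of 180 rose (34.4%, beside 5.24%) and 0 fell. The median slope was 0.36 in females and 0.22 in males, beside 0.002 and 0.02 over all features. The 4 genes listed as fat body markers had a higher median slope in males, 0.37, with 0 of 4 called in this fit. By kind, 109 of 184 snoRNAs, 8 of 21 snRNAs, 6 of 10 small Cajal body RNAs and 2 of 6 tRNAs rose in females, and 50 of 147, 5 of 12, 4 of 8 and 1 of 8 in males.

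Examples were snoRNA:Or-aca4, with a slope of 0.72 ± 0.07 (SE; adjusted p = 3.2e-15, limma) in females and 0.62 ± 0.07 (adjusted p = 6.3e-11) in males, and the RNA of RNase P, with 0.21 ± 0.03 (adjusted p = 2.4e-07) and 0.23 ± 0.04 (adjusted p = 1.5e-05). The RNA of RNase MRP had 0.16 ± 0.03 (adjusted p = 2.2e-05) and 0.18 ± 0.03 (adjusted p = 3.0e-05). In line 31 the mean of CR42652 was 5.58 in females and 5.67 in males, against medians of 4.54 and 4.75. There snoRNA:Or-aca4 was 0.32 and 0.36 log2 units above its own median, at ranks 69 and 67 of 200. Most of the structured RNAs were not above theirs in line 31. In females 103 of 226 were, with a median difference of -0.04, and in males 60 of 180, with -0.24.

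The level of CR42652 in the same line's other sex gave no calls among the structured RNAs, and that of CR32864 gave 1, a negative slope in females. With the male level of CR42652 as the measure, 0 of the 226 structured RNAs were called in females, with a median slope of 0.00005 and 113 positive slopes, and with the female level 0 of the 180 were called in males, with a median slope of -0.04. Over all features, the other sex's level gave 141 calls in females (1.29%) and 0 in males (0%), where 686 features had an unadjusted p below 0.05 in limma and the other copy gave 9 calls (0.0599%), with 11 (0.101%) in females. Whether the slopes on the levels of the same sex and of the other sex differ was not tested. The labels give no RNA quality or preparation date for single libraries, and their part was not tested.

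**Figure D5:**
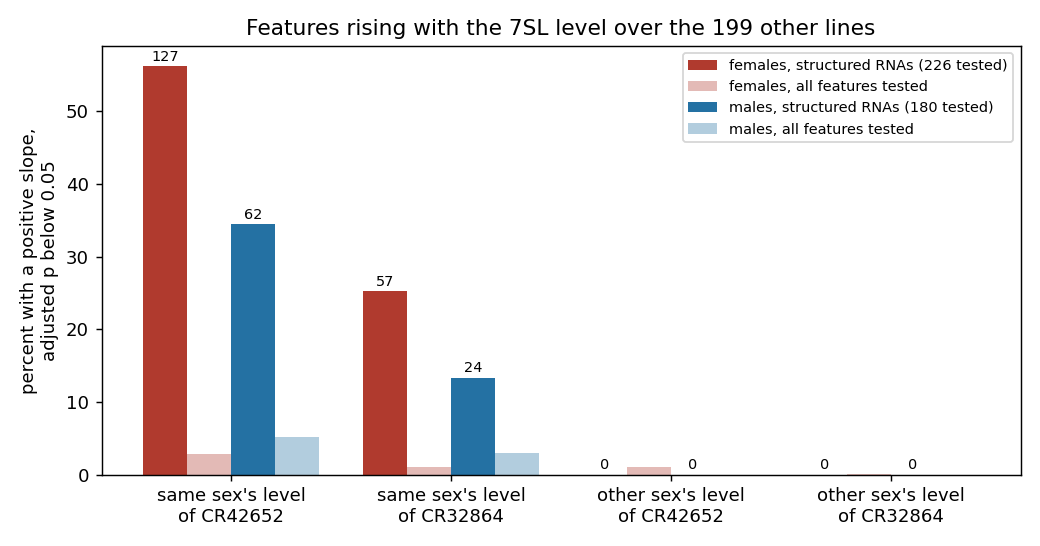
Share of features with a positive slope on the 7SL level over the other lines (vertical axis, percent with an adjusted p below 0.05), for structured noncoding RNAs (dark bars, with their number) and for all features tested (pale bars), in females (red) and males (blue), with 4 measures of the 7SL level on the horizontal axis. The dark bars reach 56.2% and 34.4% with the same sex's level of CR42652 and are at 0 with the other sex's level of either gene.

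The libraries of line 31 were ordinary in depth and agreement. They held 9.87 to 12.2 M reads (megareads) by the recovered scale, against 7.28 to 30.6 M over all 800 libraries, with a median of 11.5 M. The correlation between its replicates across features, which are not independent replicates, was 0.966 in females and 0.951 in males, against medians of 0.957 and 0.957 over all lines. Their medians over tested features lay within 0.08 log2 units of the other libraries' medians. Markers of ovary, testis, accessory gland, eye, gut, neurons and flight muscle placed line 31 in neither the 10 highest nor the 10 lowest lines in the sexes where they were expressed, with the lowest list medians at -0.58 in females and -0.36 in males for flight muscle. The 4 genes listed as fat body markers are Lsp2 and the yolk protein genes Yp1, Yp2 and Yp3. In males all 4 were below the median of the other lines, by -5.21 to -0.87 log2 units with a median of -2.52. Whether these genes report the male fat body was not tested. Among 200 male line means, line 31 was at rank 171 for Lsp2, 186 for Yp1, 188 for Yp3 and 200, the lowest, for Yp2, which was at -0.54 and -9.97 against a median of -0.05. In females the differences ran from -3.62, for Lsp2 at rank 189, to 0.27, for Yp2 at rank 46. The part of these differences in the other results was not tested. In whole flies, fewer cells of a type and less RNA per cell cannot be told apart.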

How the data were processed

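Whole-fly RNA was depleted of ribosomal RNA, made into strand-specific libraries and sequenced with single reads, per the labels' protocols. The submitters' processing notes name BWA 0.7.10, STAR 2.4.0e, Cufflinks 2.2.1, HTSeq and edgeR and the builds BDGP5 and dm3, with no role for each; the labels do not say how FPKM was scaled. The authors deposited log2 FPKM per feature and library with 0.001 already added (the floor is -9.97, at 29.6% of values), log2 variant density per line, and log2 line means per sex. Symbols (16733 of 17097 FBgn features), arms and neighbours came from Ensembl release 115 on BDGP 6.54 by identifier; no coordinate is used.

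Depth came from 3836 single-exon features, scaled so that values below 20 reads were whole reads within 0.05 (median 94.9% of values). Read numbers assume that the smallest step is 1 read, and would be a whole multiple if it is not. Intervals from reads would cover counting error only. Slopes on the 7SL level, on means of the other lines, and, as a description, the sex difference of line 31 were fitted with limma 3.58.1 in R 4.3.3, two-sided, with Benjamini-Hochberg adjustment over all features with a mean of at least 0, and were tested on simulated data. Other steps used Python 3.11.15, numpy 2.4.6, pandas 2.3.3 and scipy 1.17.1; correlations carry 100000 permutations. Replicates are separate pools of flies. The genes named are all of the both-sexes class with a symbol, of the other classes the 8 with the largest gap in each direction and a mean of at least 0, the 2 on each side of the limit, the 7SL genes, and list genes past a test. The features, lists and tests were chosen with earlier results of these data known. A few genes that this rule names are not reported here.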

Additional observations from a re-analysis of the deposited data

How the results depend on the processing

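The counts of 14, 11 and 18 features (both sexes, females only, males only) became 4, 4 and 8 with a mean of at least 0, and 8, 4 and 9 with a margin of 0.5 log2 units. With 1 library of line 31 per sex they ran from 14 to 21, 48 to 55 and 56 to 104, as fewer samples make the rule easier. Median-centring gave 13, 14 and 18 and lost Pkc53E from both sexes, and leaving out lines 45 and 492 changed none of the 3 counts. CR32864 stayed in the class of both sexes in every setting.

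The 511 female features associated with 7SL became 1881 with median-centred libraries, 280 with no filter, 141 with the other sex's level and 811 to 1533 with 1 replicate. Without lines 897 and 45 they were 596. With the other copy they were 163, 559 with that copy without lines 765 and 531, and 11 with that copy's level in the other sex. The 885 male features became 337, 465, 0 and 535 to 3663, then 544 and 9, and 567 without lines 812 and 528, or 320 with the other copy without lines 531 and 765. What same-numbered replicates share is not given in the labels. The correlation of same-numbered female and male deviations was over 0.1 in 83 of 200 lines and under -0.1 in 9. Its median was 0.077, and it was -0.003 in line 31. More lines were thus positive than negative, and what the replicate number carries was not tested. A further fit used single libraries in place of line means, with the line as block and the replicate number as covariate. It took the 7SL level of each library, so its unit and its predictor differ from those of the main fit. Its counts were 3812 and 3681, with 11 calls for the sex difference. Of 14 RNA polymerase III genes 9 rose in females and 8 in males (23.6% and 20.4% of all features did). Of the 4 genes listed as fat body markers, 0 rose in females and 4 in males. The 10 sex-difference calls became 34 with no filter, 5 with a pseudocount of 1 and 9 to 21 with 1 replicate. The split of calls moved too: the positive share of 311 among 511 became 901 among 1881 in females on median-centring, and 787 among 885 became 124 among 337 in males. The cause was not tested. Of 128 settings of single genes against the other lines, 28 moved by more than the spread between replicates and 0 reversed. Settings that leave out 1 replicate of line 31 could not move by this measure. Leaving out 1 of a pair changes their mean by less than their SD. The 28 therefore came from median-centring and the pseudocount of 1, and the unmoved settings with 1 replicate show nothing about stability. Genes under about 20 reads are limited by depth.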
